A study of Mus musculus with 27 samples.

Results

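The genes described here encode the proteasome, the protease complex that degrades ubiquitin-tagged proteins, together with its inducible immunoproteasome subunits and its activators. Members were all entries named Psma, Psmb, Psmc, Psmd or Psme followed by a digit, without the pseudogene suffix, that had at least 1 TPM (an abundance per gene length, expressed so that the values of each library add up to a fixed total) in at least 3 libraries of a table. In the table of injured muscle 51 names matched, 5 of these carried the pseudogene suffix, and 44 of the remaining 46 passed the level, out of 55852 entries. Psma8, a testis form of an alpha subunit, reached no more than 1.02 TPM in any library, and Psmb11, the thymus form of a catalytic subunit, no more than 0.37 TPM, and neither passed. In the table that holds the control muscle 43 members passed out of 55677 entries, because Psme2b did not.

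RNA was sequenced from whole muscle of male C57BL/6J mice in 27 libraries, 3 per group. Cardiotoxin (CTX), a snake venom toxin that destroys muscle fibres, which then regenerate, was injected into WT mice and into littermates labelled Gsdme KO, a deletion in all cells, and muscle was taken 1, 4, 7 or 14 days later (groups D1, D4, D7 and D14), which gave 24 injured libraries in 8 groups. The other 3 libraries were WT control muscle, which the study describes as muscle of the opposite, uninjured side and the deposited description calls unloaded. The titles read KO but the genotype entries read knockdown, and KO below means the libraries so titled. The study describes the muscle as gastrocnemius and the description also names the thigh. The design text calls the 3 libraries of a group biological replicates, but the labels tie none to an animal, so that the p-values measure the spread between these libraries.

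The catalytic core of the proteasome is a stack of rings, with outer rings of alpha subunits that gate the entrance and inner rings of beta subunits, of which Psmb6, Psmb7 and Psmb5 carry the active sites. In immune cells, and in other cells exposed to interferon gamma, Psmb9, Psmb10 and Psmb8 are built in at their places, which gives the immunoproteasome and favours peptides that fit MHC class I molecules. The regulatory particle, made of the Psmc ATPases and the Psmd subunits, binds ubiquitin chains and unfolds the substrate, and the Psme activators open the core without ATP. Injured muscle takes in leukocytes, rebuilds fibres and clears damaged protein, all processes in which the proteasome takes part. The 44 members were 7 alpha subunits, 4 noncatalytic beta subunits, 3 constitutive catalytic subunits, 3 immunoproteasome subunits, 6 ATPases, 14 Psmd genes, 4 activators and 3 others. The others were Psmc3ip and Psme3ip1, which match by name but encode partners and not subunits, and Psme2b, a near-identical copy of Psme2, for which the division of reads between the copies is uncertain.

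The genes for 2 of the immunoproteasome subunits lie in the MHC region of chromosome 17 beside the peptide transporter genes. In the mm10 genome (GRCm38), Psmb9 (ENSMUSG00000096727) lies at chr17:34181987-34187764 on the minus strand and Psmb8 (ENSMUSG00000024338) at chr17:34197721-34201454 on the plus strand. Tap1, which encodes a subunit of the transporter that carries peptides to MHC class I, lies between at chr17:34187553-34197225, and its annotated start overlaps that of Psmb9 on the opposite strand, so that reads of the shared part could be given to either gene. Psmb10 (ENSMUSG00000031897) lies apart at chr8:105935735-105938444. The constitutive genes Psmb5 (ENSMUSG00000022193, chr14:54614119-54618022), Psmb6 (ENSMUSG00000018286, chr11:70525367-70527858) and Psmb7 (ENSMUSG00000026750, chr2:38588036-38644087) are on 3 other chromosomes. The activator genes Psme1 (ENSMUSG00000022216, chr14:55578123-55581529) and Psme2 (ENSMUSG00000079197, chr14:55587441-55591113) are neighbours on chromosome 14.

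Promoter sequence was read from RefSeq (build GRCm38.p6, 250 bases before to 50 after each start) for 38 of the member genes, with 42 promoters. Psmb7 was not among these genes and was not searched. In the promoters read, 3 motifs were searched on both strands. TGACNNNGC, the core of the antioxidant response element that NRF factors bind, was found in 6 member genes (Psmb5, Psmb6, Psmc6, Psmd9, Psmd12 and Psme4) and in 12.4% of all 32851 promoters. GAAANNGAA, the core of the interferon-stimulated response element, was found in 6 (Psmb3, Psmb4, Psmc2, Psmd4, Psmd9 and Psme1) and in 8.56% of all promoters, and TTCNNNGAA, the gamma-activated site, in 2 (Psmb8 and Psmd2) and in 8.30%. These matches are a description of letters only. The 3 catalytic genes with a match are shown with it in capitals, because they span the constitutive and the inducible forms. The Psmb5 stretch is chr14:54618023-54618115 on the minus strand, with the match 47 bases before the start, and the Psmb6 stretch is chr11:70525237-70525356 on the plus strand, with the match 9 bases before the start. For Psmb8 only 30 bases are shown, chr17:34198088-34198117 on the plus strand, because GENCODE places them in the 5′ untranslated exon of a longer transcript, and the match lies 97 bases before the RefSeq start.
Psmb5: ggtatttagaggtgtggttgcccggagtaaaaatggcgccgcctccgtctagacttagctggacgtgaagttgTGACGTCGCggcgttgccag
Psmb6: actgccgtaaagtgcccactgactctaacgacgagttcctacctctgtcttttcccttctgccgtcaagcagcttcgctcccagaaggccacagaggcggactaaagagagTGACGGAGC
Psmb8: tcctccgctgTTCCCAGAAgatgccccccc

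Between 11785 and 14704 entries reached 1 TPM per library, and between 25.4% and 61.4% of the TPM of a library fell on its 50 most abundant genes. The targeted gene, Gsdme (ENSMUSG00000029821), which encodes the pore-forming gasdermin E, was low throughout and was detected in the KO libraries. On D1 it measured 2.76, 4.85 and 3.16 TPM in WT and 1.53, 1.28 and 2.17 TPM in KO, with no overlap. On D4 and D7 every KO library also lay below every WT library, with log2 differences of -0.70 and -0.58, not called. By D14 it measured 1.46, 2.21 and 2.26 TPM in WT and 1.96, 1.77 and 1.27 TPM in KO, which overlap. Its difference averaged over days was -0.55 (SE 0.095, adjusted p = 0.0664, limma). The libraries WT D1 replicate 3, KO D4 replicate 2 and KO D7 replicate 2 held few leukocyte transcripts for their groups. The summed TPM of 8 leukocyte and macrophage markers was 826 in the first against up to 3796 in its group, 414 in the second against up to 3579, and 445 in the third against up to 1171. WT D14 replicate 3 was also low for its group, at 157 against up to 551. The defining myofibre genes were abundant in all groups, with a summed TPM of 8 such genes from 141400 to 153400 in control and from 37290 to 178900 after injury. Whole muscle was measured, so that fewer cells of a type and less RNA per cell cannot be told apart.

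At baseline the constitutive catalytic genes exceeded their inducible counterparts many times over. In control muscle Psmb6 measured 259, 242 and 244 TPM, Psmb7 246, 261 and 240 TPM, and Psmb5 209, 179 and 193 TPM. Of the inducible genes, Psmb10 measured 19.03, 16.9 and 14.7 TPM, Psmb8 12.6, 12.6 and 9.56 TPM, and Psmb9 3.50, 3.49 and 2.40 TPM. The ranges of the constitutive and inducible genes were far apart, and the 3 libraries of each gene lay close together. As a share of the summed TPM of all 6 genes, the immunoproteasome subunits made up 4.36% ± 0.50 (SD, n = 3). Within pairs that exchange for one another, Psmb8 made up 5.65% of the sum with Psmb5, Psmb9 1.24% of that with Psmb6, and Psmb10 6.35% of that with Psmb7.

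To ask what injury changed by the first day, WT D1 was compared with control within the table that holds both. Values of each gene were compared as log2(TPM + 1) with limma, with p-values adjusted over all genes tested by the method of Benjamini and Hochberg, and a gene was called at an adjusted p under 0.05. The immunoproteasome subunits rose most among the catalytic genes. Psmb8 measured 86.0, 138 and 45.9 TPM on D1, and its mean was 7.76 times that of control (log2 difference 2.73, SE 0.35, adjusted p = 0.0015). Psmb9 measured 20.99, 32.2 and 14.0 TPM, with a mean 7.16 times that of control (log2 difference 2.44, SE 0.30, adjusted p = 0.00137). Psmb10 measured 64.2, 98.4 and 38.4 TPM, with a mean 3.97 times that of control (log2 difference 1.83, SE 0.31, adjusted p = 0.00277). The D1 libraries of each differed more than 2-fold from the lowest, replicate 3, to the highest, replicate 2, and every D1 library lay above every control library.

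The constitutive genes rose less. Psmb5 (log2 difference 1.02, SE 0.15, adjusted p = 0.00211) and Psmb6 (0.87, SE 0.16, adjusted p = 0.0033) were called, and Psmb7 was not (0.42, SE 0.16, adjusted p = 0.0523). The mean of the 3 inducible genes gained 1.56 more on the log2 scale than that of the 3 constitutive genes, and their share of the catalytic TPM was 13.1% on D1 in this table. The gain held for the 3 inducible genes under each of the 3 other scalings and with any library left out. Leaving out WT D1 replicate 3 gave 3.14 for Psmb8, 2.72 for Psmb9 and 2.18 for Psmb10. All 8 leukocyte and macrophage markers were also called higher on D1, with summed TPM from 145 to 188 in control and from 826 to 3800 on D1 in this table, and their part in the result was not tested.

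**Figure D1:**
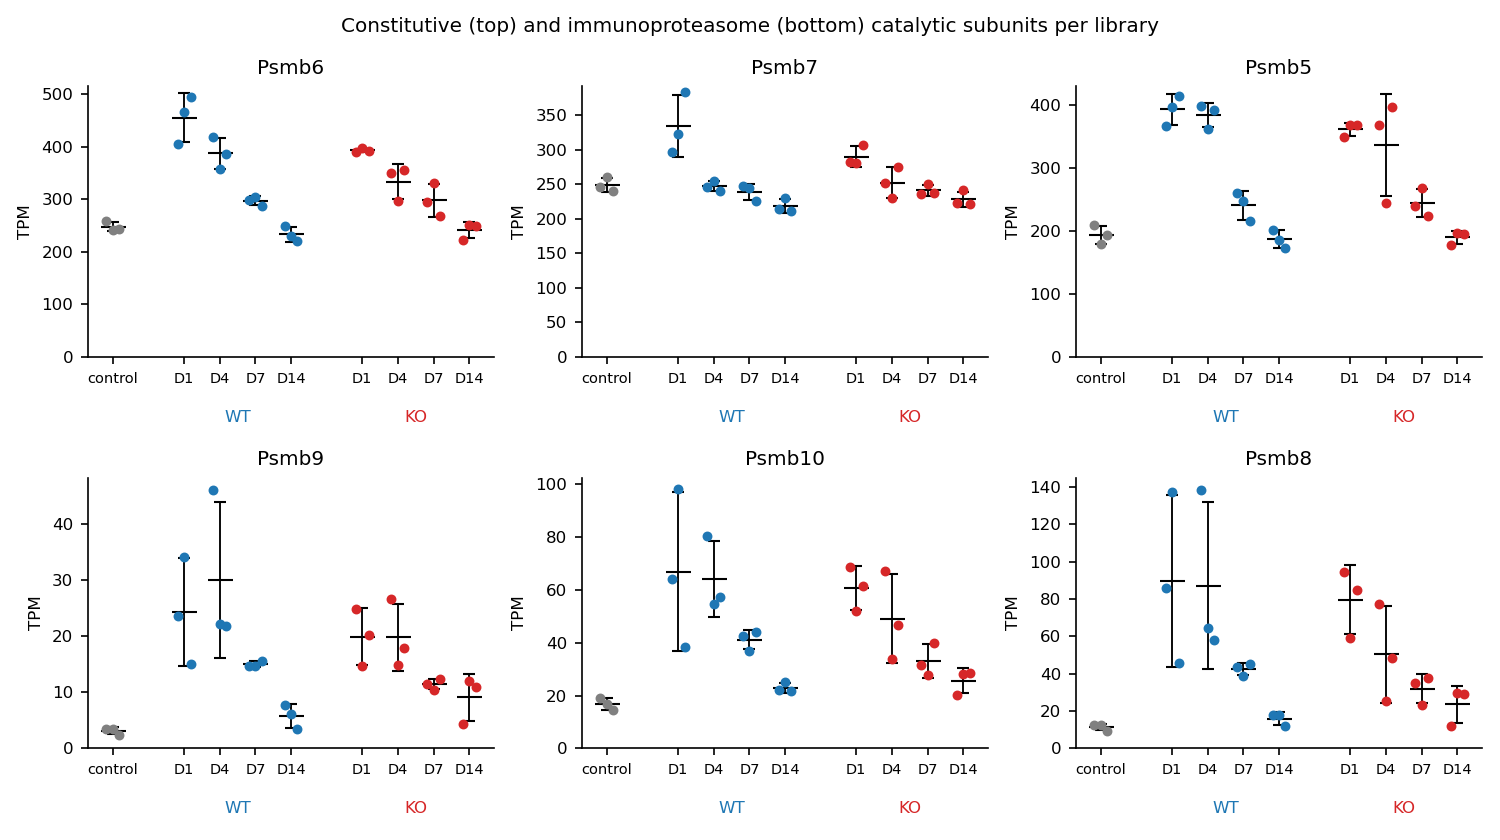
TPM (linear axis from 0) of the constitutive catalytic genes Psmb6, Psmb7 and Psmb5 (top) and of their inducible counterparts Psmb9, Psmb10 and Psmb8 (bottom), by group. Points are libraries and bars are the mean ± SD of 3, control muscle comes from a separately quantified table, and the bottom row shows the spread on D1 and D4, with Psmb8 from 45.9 to 137 TPM in WT on D1 against 9.56 to 12.6 TPM in control.

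In all, 41 of the 43 members were called higher in WT D1 than in control and 0 lower, where 55.4% of all genes tested were called higher and 5.64% lower. The median difference of the members was 1.07 against 0.66 for all genes, so that the members lay 0.40 above the shift of all genes. The alpha ring (7 of 7, median 1.28) rose from Psma6 (0.49, adjusted p = 0.0256) to Psma5 (1.65, adjusted p = 0.000632), a ring subunit whose control libraries measured 44.4, 47.4 and 43.5 TPM and whose D1 libraries measured 131, 150 and 150 TPM. Among the noncatalytic beta genes (4 of 4) the differences ran from 0.68 for Psmb1 to 1.15 for Psmb4. Among the ATPases (6 of 6) they ran from 0.65 for Psmc3 to 1.52 for Psmc6. Among the Psmd genes (14 of 14) they ran from 0.56 for Psmd6, a lid subunit, to 1.62 for Psmd14, the deubiquitinase that removes ubiquitin chains at the entrance. Psmd14 measured 28.3, 31.0 and 34.0 TPM in control and 85.1, 108 and 101 TPM on D1. Both sets of libraries were tight and far apart.

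These counts depended on how the TPM were scaled. Here and below, the shares of all genes called are those of the TPM as deposited with all libraries. With median-of-ratios scaling 11 members were called higher, with quantile normalization 25 and with the 50 most abundant genes removed 23, and the first of these turned the sign for Psma6, Psmb1, Psmc3, Psmd6 and Psme1 and the last for Psma6. Relative to the median of all genes, the immunoproteasome genes stayed between 1.72 and 1.88 higher under the 4 scalings, and the alpha ring between 0.50 and 0.84 higher.

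Of the activators, Psme2, which with Psme1 forms the interferon-inducible cap PA28, rose to a mean 4.30 times that of control (control 33.0, 25.4 and 33.9 TPM, log2 difference 1.91, SE 0.39, adjusted p = 0.00485). Psme1 rose less (0.77, SE 0.27, adjusted p = 0.037), and Psme3, the nuclear activator, rose by 1.02 (adjusted p = 0.0033). Psme4, the large activator PA200, measured 37.8, 42.8 and 43.1 TPM in control and was not called (0.12, SE 0.23, adjusted p = 0.674). The call of Psme1 was lost under every other scaling and without WT D1 replicate 1 or 2 or any control library.

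Over the days after injury the catalytic genes of WT muscle took different courses. Psmb8 measured 85.9, 137 and 45.9 TPM on D1 and 139, 64.4 and 58.3 TPM on D4. It then measured 43.4, 39.0 and 45.2 TPM on D7 and 17.9, 17.8 and 11.8 TPM on D14. The libraries of D1 and D4 overlapped, those of D7 lay together below them, and those of D14 lay lower again, the lowest of them within the range of control. Psmb9 measured 23.6, 34.3 and 15.0 TPM on D1, 46.2, 22.2 and 21.9 TPM on D4, 14.8, 14.7 and 15.7 TPM on D7, and 7.69, 6.09 and 3.50 TPM on D14. Psmb10 measured 64.2, 98.4 and 38.4 TPM on D1, 80.6, 54.6 and 57.3 TPM on D4, 42.5, 37.0 and 44.0 TPM on D7, and 22.0, 25.2 and 21.8 TPM on D14. Both had a wide spread on D1 and D4 and a narrow one on D7, where they overlapped the lowest D1 library.

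Of the constitutive genes, Psmb7 was lower on D4 than on D1, whereas Psmb5 and Psmb6 overlapped between those days. Psmb5 measured 368, 398 and 415 TPM on D1, 399, 363 and 393 TPM on D4, 260, 248 and 216 TPM on D7, and 203, 187 and 173 TPM on D14. Psmb6 measured 406, 466 and 496 TPM on D1, 418, 358 and 387 TPM on D4, 299, 305 and 288 TPM on D7, and 249, 231 and 221 TPM on D14. For both genes D7 lay below D4 and D14 below D7. Psmb7 measured 296, 323 and 384 TPM on D1, 246, 255 and 241 TPM on D4, 247, 245 and 226 TPM on D7, and 214, 230 and 212 TPM on D14, with a gap between D1 and D4 and overlap between the later days.

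The immunoproteasome share of the catalytic TPM in WT libraries was 14.0%, 18.5% and 7.12% on D1 and 19.97%, 12.6% and 11.9% on D4. It was 11.1%, 10.2% and 12.6% on D7 and 6.66%, 7.05% and 5.77% on D14, against 4.69%, 4.61% and 3.79% in control. The D14 libraries lay together above the control libraries, which come from the other table, and the D1 and D4 libraries spread widely. Summed over the members, the mean share of all TPM went from 0.763% on D1 through 0.570% and 0.414% to 0.330% on D14, with 0.374% ± 0.0035 (SD, n = 3) in control.

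**Figure D2:**
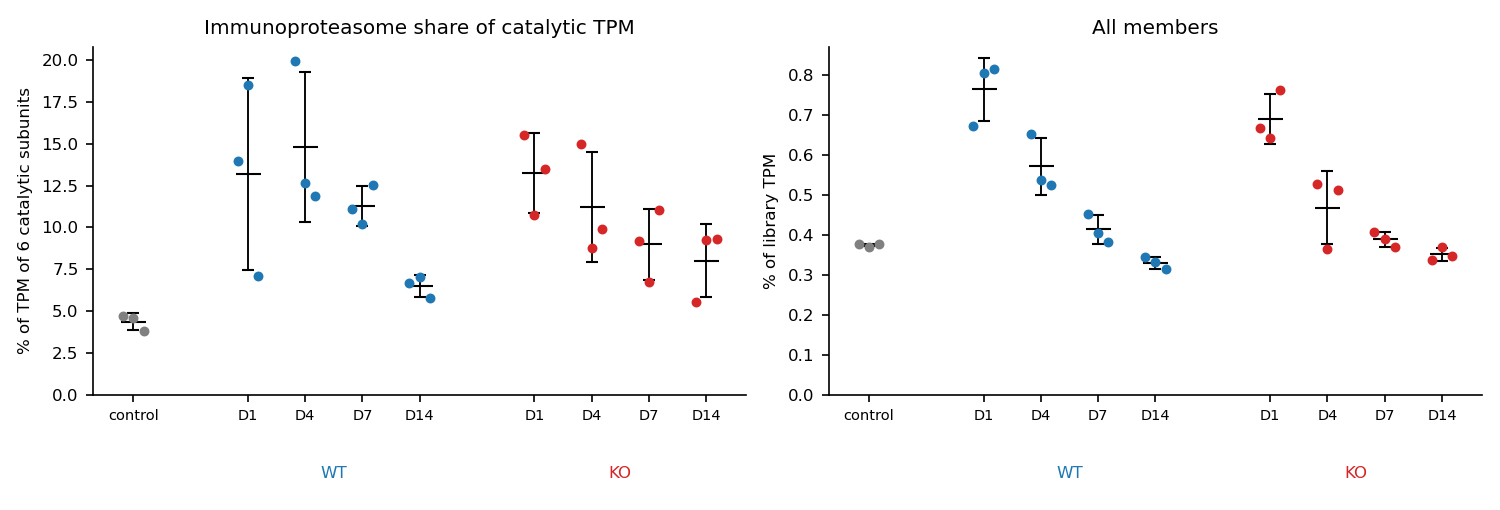
Left, TPM of Psmb8, Psmb9 and Psmb10 as a percent of the summed TPM of all 6 catalytic genes. Right, TPM of all members as a percent of a library's total. Points are libraries and bars are the mean ± SD of 3 per group, with control from the separate table, and the left panel shows the spread from 7.12% to 18.5% among WT D1 libraries while the right panel shows a decline from 0.763% on D1 to 0.330% on D14 in WT means.

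From D1 to D4 in WT, the regulatory particle and the alpha ring fell while the immunoproteasome genes did not move beyond their spread. Of the 44 members 20 were called lower and 0 higher, where 5.27% of all genes tested were called lower and 14.6% higher. The called genes were 9 of 14 Psmd genes, 5 of 7 alpha subunits, 3 of 6 ATPases, 1 of 4 noncatalytic beta genes (Psmb2, -0.46), 1 of 3 constitutive catalytic genes (Psmb7, -0.42, adjusted p = 0.00847), 1 of 4 activators and 0 of 3 immunoproteasome genes. Psmd11, a lid subunit that limits assembly of the complex, measured 121, 134 and 130 TPM on D1 and 60.4, 59.2 and 66.6 TPM on D4 (log2 difference -1.04, SE 0.14, adjusted p = 0.000111). The D4 libraries were close to its control libraries in the other table, at 60.6, 47.7 and 58.0 TPM. Psmd2, the large scaffold of the base, measured 228, 260 and 305 TPM on D1 and 153, 122 and 130 TPM on D4 (-0.97, SE 0.14, adjusted p = 0.000206). Psmc4, an ATPase, measured 161, 184 and 199 TPM on D1 and 127, 105 and 107 TPM on D4. In all 3 genes the days did not overlap.

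The Psmd genes not called were Psmd5, Psmd9 and Psmd10, which are assembly chaperones of the base and not part of the finished particle, and the lid subunits Psmd6 and Psmd13, with differences from -0.44 for Psmd6 to 0.17 for Psmd10. The lowest value among the ATPases was that of Psmc6 (-1.04, adjusted p = 0.0391) and the highest that of Psmc3 (-0.10, not called), and among the alpha genes Psma2 was lowest (-0.69). Psme4 fell by 1.05 on the log2 scale (SE 0.19, adjusted p = 0.000774), from 41.5, 35.8 and 66.6 TPM on D1 to 22.8, 22.3 and 20.3 TPM on D4, below the control libraries. The other differences were -0.02 for Psmb8 (SE 0.43), 0.28 for Psmb9 (SE 0.36), 0.02 for Psmb10 (SE 0.27), 0.27 for Psme1 and 0.50 for Psme2, with -0.30 for Psme3, -0.03 for Psmb5 and -0.23 for Psmb6, all with an adjusted p of 0.173 or more.

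The median of all genes shifted by 0.17 in this step, and the Psmd genes lay 0.89 and the alpha genes 0.75 below that shift. Both stayed below the median of all genes under the 3 other scalings, by 0.86 to 0.95 for Psmd genes and by 0.75 to 0.82 for alpha genes, with 30 to 32 members called lower. Without WT D1 replicate 3, the library with few leukocyte transcripts, 13 members were called lower, as without WT D4 replicate 3, and in a fit of these 2 groups alone 4 were. The labels give no batch for the WT D1 libraries, so that batch and day cannot be told apart in this step. Markers of regenerating fibres and myoblasts also moved in this step, with 4 of 5 called higher (median 6.80) and a summed TPM from 99.7 to 157 on D1 and from 1118 to 1599 on D4. Of the 8 myofibre markers 4 were called lower, with a summed TPM from 72820 to 144400 on D1 and from 37290 to 79590 on D4, and of the 8 leukocyte and macrophage markers 1 was called higher. Their part in the result was not tested.

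In KO muscle, Psmd, alpha and ATPase genes also fell between D1 and D4. There 26 members were called lower and 0 higher, where 12.2% of all genes were called lower and 7.18% higher. The called members were 10 of 14 Psmd genes, 6 of 7 alpha genes, 5 of 6 ATPases, 3 of 4 noncatalytic beta genes and 2 of 4 activators, and 0 of the 6 catalytic genes. Psmd11 fell by 1.29 on the log2 scale (SE 0.14, adjusted p = 2.86e-05), from 117, 125 and 155 TPM to 64.1, 42.5 and 55.2 TPM. Psmd14 fell by 1.30 (SE 0.23, adjusted p = 0.00109), from 89.6, 79.5 and 121 TPM to 47.4, 24.8 and 46.6 TPM. Psma1 (-0.93), Psmc6 (-1.04), Psmb2 (-0.64), Psme4 (-0.70, adjusted p = 0.0153) and Psme3 (-0.66, adjusted p = 0.0107) also fell. The values for the catalytic genes that were not called ran from -0.76 for Psmb8 to -0.02 for Psmb9, and the remaining activators gave -0.18 for Psme1 and -0.24 for Psme2. Without KO D4 replicate 2 there were 17 calls, without KO D1 replicate 3 there were 11, and in a fit of these 2 groups alone 0. Of the markers, 3 of 8 leukocyte and macrophage genes were called lower in this step, with a summed TPM from 2967 to 4240 on D1 and from 414 to 3579 on D4, as were 3 of 3 neutrophil genes (median -6.81), with sums from 275 to 3292 on D1 and of 14.1 or less on D4. Of the regenerating fibre and myoblast markers 3 of 5 were called higher, with sums from 93.8 to 119 on D1 and from 46.3, in replicate 2, to 902 on D4. All 8 myofibre markers had positive values with 0 called, whereas in the WT step 4 of 8 were called lower. Their sums in KO ran from 58680 to 81790 on D1 and from 59930 to 122300 on D4, which overlap. The part of these markers in the result was not tested.

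**Figure D3:**
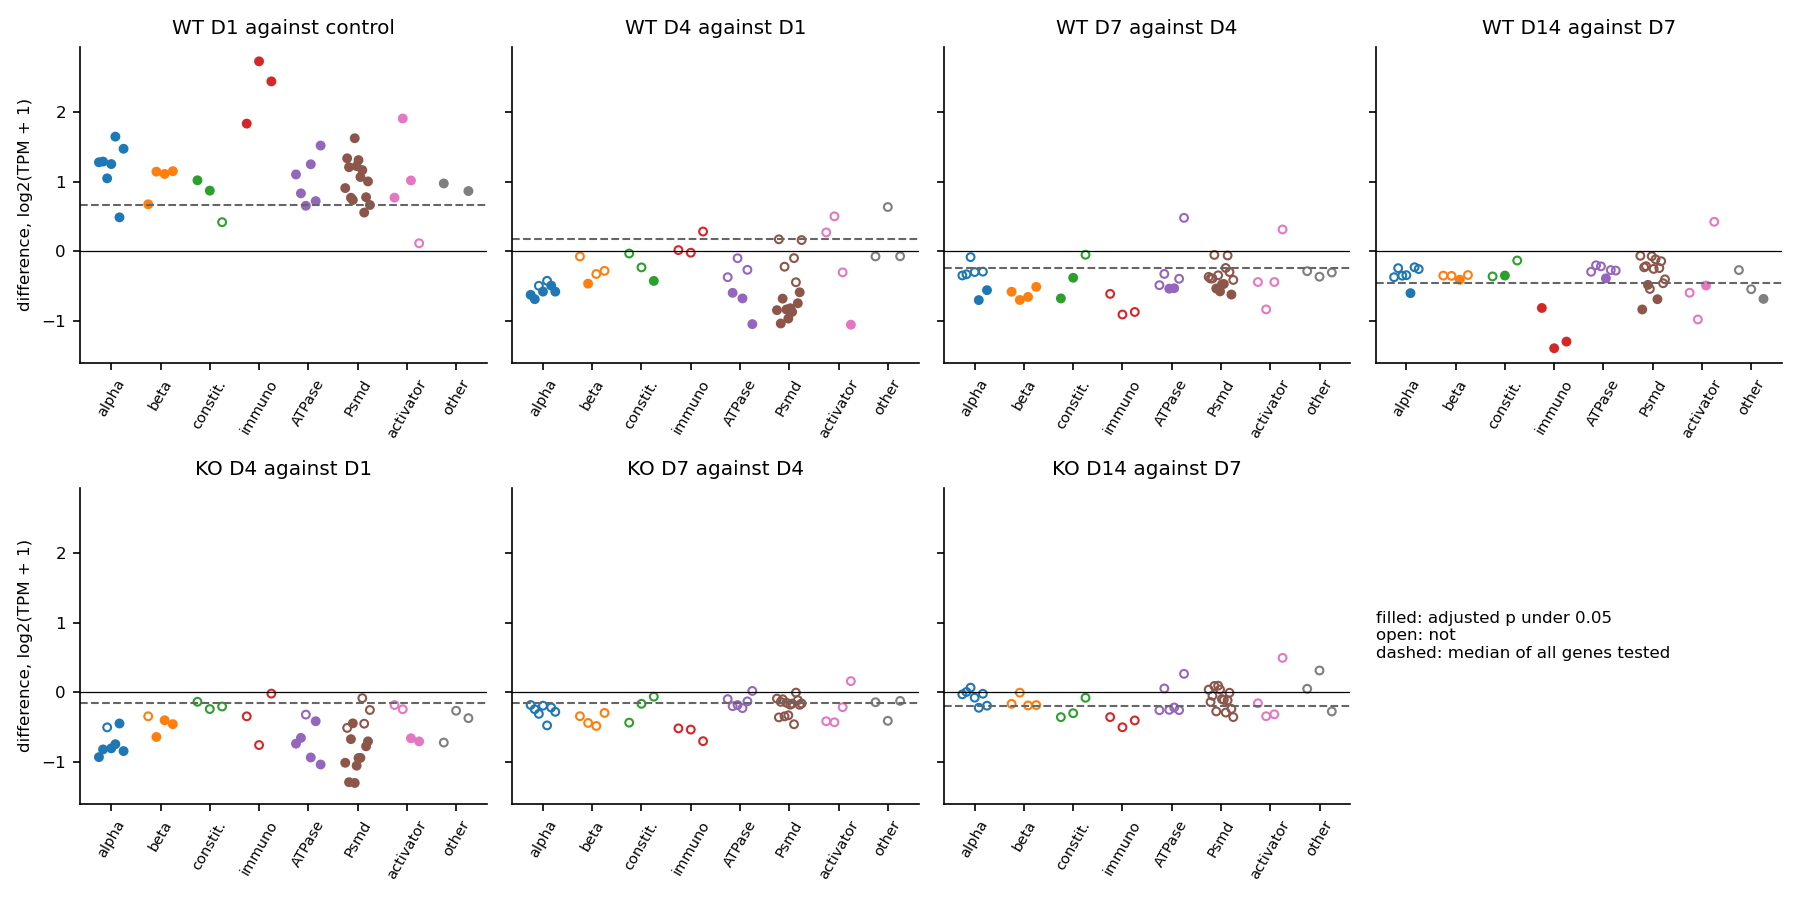
Difference in log2(TPM + 1) of each member (points), by class, for each step between groups, with filled points called at an adjusted p under 0.05 and the dashed line at the median of all genes tested. In the step from D1 to D4 in WT the medians of the Psmd and alpha points, -0.71 and -0.58, lie below the dashed line, as they did under each scaling tried.

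From D4 to D7 in WT, 15 members were called lower and 0 higher, where 9.31% of all genes were called lower and 3.04% higher. All 4 noncatalytic beta genes were called, from Psmb4 (-0.51, adjusted p = 0.0284) to Psmb2 (-0.70, adjusted p = 0.0114), as were Psmb5 (-0.68, SE 0.15, adjusted p = 0.0108) and Psmb6 (-0.38, adjusted p = 0.0394), 5 of 14 Psmd genes, 2 of 7 alpha genes and 2 of 6 ATPases. Psmb3, a structural subunit of the inner ring, measured 359, 302 and 325 TPM on D4 and 227, 202 and 195 TPM on D7 (adjusted p = 0.00531), with no overlap. Psma5 was the lowest alpha gene (-0.70, adjusted p = 0.0384), Psmd8 the lowest Psmd gene (-0.62, adjusted p = 0.045) and Psmc3 the lowest ATPase (-0.54, adjusted p = 0.0205). The highest values of those classes, none called, were -0.08 for Psma3, -0.05 for Psmd12 and 0.48 for Psmc6.

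The immunoproteasome genes gave larger differences that were not called, -0.91 for Psmb8 (adjusted p = 0.144), -0.87 for Psmb9 (adjusted p = 0.101) and -0.61 for Psmb10 (adjusted p = 0.126). Their SEs, from 0.27 to 0.43, exceeded the 0.15 of Psmb5. The activators were not called, with -0.83 for Psme2, -0.44 for Psme1 and Psme3 and 0.31 for Psme4. The calls of this step followed the scaling, with 1 member called lower after median-of-ratios scaling and 0 after the other scalings (limma). In the TPM as deposited, 26 members were lower and 0 higher at an unadjusted p under 0.05, where 26.1% of all genes were lower and 7.39% higher. The median of all genes moved by -0.24 here and the members lay 0.16 below it. Without WT D4 replicate 1 or WT D7 replicate 3 there was 1 call, and without WT D7 replicate 2 there were 2. Of the regenerating fibre and myoblast markers 2 of 5 were called lower in this step, with sums from 1118 to 1599 TPM on D4 and from 173 to 465 TPM on D7. All 8 leukocyte and macrophage markers had negative values, with 0 called and 4 at an unadjusted p under 0.05. All 8 myofibre markers had positive values, with 1 called higher. Their sums ran from 37290 to 79590 TPM on D4 and from 99020 to 111600 TPM on D7, without overlap. The part of these markers in the result was not tested.

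From D7 to D14 in WT, all 3 immunoproteasome genes were called lower. Psmb8 fell by 1.39 on the log2 scale (SE 0.43, adjusted p = 0.0231), Psmb9 by 1.30 (SE 0.36, adjusted p = 0.0154) and Psmb10 by 0.81 (SE 0.27, adjusted p = 0.0319), and the D14 libraries of each lay below the D7 libraries. In all 12 members were called lower and 0 higher, which is a share near that of all genes, of which 30.9% were called lower and 0.923% higher. The others called were Psmb6 (-0.35, adjusted p = 0.0304), Psmb3 (-0.41), Psma5 (-0.60), Psmc4 (-0.39), the base chaperones Psmd10 (-0.83) and Psmd5 (-0.69), Psmd13 (-0.48), Psme3 (-0.49, adjusted p = 0.0319) and Psme3ip1 (-0.68). Psmd10, also known as gankyrin, measured 13.3, 13.6 and 12.5 TPM on D7 and 6.15, 7.48 and 7.17 TPM on D14, with no overlap.

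Of the genes not called, Psmb5 gave -0.36 (adjusted p = 0.0632), Psmb7 -0.13, Psme1 -0.59 (adjusted p = 0.057), Psme2 -0.98 (adjusted p = 0.0801) and Psme4 0.42 (adjusted p = 0.0845). The smallest differences within classes were -0.34 for Psmb4, -0.23 for Psma6, -0.20 for Psmc2 and -0.06 for Psmd1. The median of all genes moved by -0.45, and relative to it the members lay 0.10 higher and the immunoproteasome genes 0.85 lower. The median of the members was -0.35 and turned positive under the other 3 scalings (0.24, 0.03 and 0.02), whereas the immunoproteasome genes remained 0.78 to 0.83 below the median of all genes there, with 0, 0 and 2 of the 3 called. Without WT D7 replicate 1 or WT D14 replicate 3 there were 0 calls, and with another of the D7 or D14 libraries left out there were 5 to 8. WT D14 replicate 3 held the fewest leukocyte transcripts of its group and the lowest values of Psmb8, Psmb9 and Psmb10. All 8 leukocyte and macrophage markers and all 4 proliferation markers were also called lower in this step, with summed leukocyte TPM from 1279 to 1770 on D7 and from 157 to 551 on D14. So were 4 of 5 regenerating fibre and myoblast markers (median -3.32), 2 of 3 endothelial, 1 of 5 T and NK cell and 1 of 3 fibro-adipogenic progenitor markers. Of the 8 myofibre and 3 neutrophil markers 0 were called. The part of all these markers in the result was not tested.

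In KO the later steps gave no calls by limma. From D4 to D7, 0 of 44 members and 0% of all genes were called in either direction. At an unadjusted p under 0.05, 6 members were lower and 0 higher, where 7.69% of all genes were lower and 2.21% higher. From D7 to D14, 0 members were called, where 0.477% of all genes were called lower and 0.0827% higher. At an unadjusted p under 0.05, 3 members were lower and 1 higher, where 16.1% of all genes were lower and 3.18% higher. Psmb9 gave -0.70 (SE 0.36) and then -0.40 (SE 0.36), Psmb8 -0.53 and -0.50 (SE 0.43), and Psmb10 -0.52 and -0.36 (SE 0.27). Without KO D4 replicate 2, 9 members were called lower from D4 to D7, and the share of all genes called in that fit is not given. The difference between the WT and KO steps over all 4 days was tested as the interaction described with the genotype comparison.

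The loss of Gsdme is the second question of the design, and no member was called between genotypes. Psmb8 measured 94.8, 59.4 and 85.1 TPM in KO on D1 and 77.5, 25.6 and 48.5 TPM on D4. It measured 35.0, 23.3 and 37.8 TPM on D7 and 12.1, 29.6 and 28.9 TPM on D14. On D1, D4 and D14 the KO libraries overlapped those of WT, and on D7 all KO libraries lay below all WT libraries. Psmb9 measured 24.9, 14.8 and 20.2 TPM on D1, 26.6, 14.9 and 17.9 TPM on D4, 11.6, 10.5 and 12.4 TPM on D7, and 4.36, 12.1 and 11.0 TPM on D14, again apart from WT on D7 only. Psmb10 measured 68.6, 52.1 and 61.4 TPM on D1, 67.1, 33.8 and 46.6 TPM on D4, 31.4, 27.9 and 40.1 TPM on D7, and 20.2, 28.3 and 28.6 TPM on D14, and overlapped WT on every day. KO D4 replicate 2, with few leukocyte transcripts, was the lowest of its group for all 3 genes, and so was KO D7 replicate 2.

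For Psmb8 the KO minus WT difference was -0.06, -0.80, -0.42 and 0.47 on the successive days (SE 0.43 each), and -0.20 averaged over days (SE 0.21). For Psmb9 the values were -0.23, -0.53, -0.36 and 0.53 (SE 0.36) with an average of -0.15 (SE 0.18), and for Psmb10 -0.05, -0.41, -0.32 and 0.14 (SE 0.27) with an average of -0.16 (SE 0.14). The sign of all 3 genes was negative on D1, D4 and D7 and positive on D14 in the TPM as deposited and under the 3 other scalings, and positive on D1 and D4 with array quality weights, with an adjusted p of 0.242 or more on every day as deposited. Without KO D4 replicate 2 the D4 differences were -0.39 for Psmb8, -0.36 for Psmb9 and -0.17 for Psmb10. Without KO D7 replicate 2 the D7 differences were -0.22, -0.30 and -0.20, and the remaining KO libraries of Psmb8 and Psmb9 still lay below those of WT.

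The constitutive genes were not called between genotypes either. Psmb5 in KO measured 350, 368 and 368 TPM on D1, 369, 244 and 398 TPM on D4, 240, 268 and 224 TPM on D7, and 179, 197 and 196 TPM on D14. Psmb6 in KO measured 391, 397 and 393 TPM on D1, 350, 297 and 356 TPM on D4, 296, 331 and 268 TPM on D7, and 224, 251 and 250 TPM on D14. Psmb7 in KO measured 283, 281 and 307 TPM on D1, 252, 230 and 275 TPM on D4, 235, 250 and 238 TPM on D7, and 222, 241 and 222 TPM on D14. Psmb6 lay below all WT libraries on D1 and on D4 and overlapped them later. The KO minus WT difference on the successive days was -0.12, -0.22, 0.02 and 0.02 for Psmb5, -0.21, -0.22, -0.0013 and 0.05 for Psmb6, and -0.20, 0.02, 0.01 and 0.07 for Psmb7. On D1 these exceeded in size those of Psmb8 and Psmb10, and on D4 they were smaller than those of all 3 inducible genes, a contrast that was not tested. By exact permutation of the genotype within a day (two-sided, 3 against 3, where 0.1 is the smallest possible p) Psmb6 gave p = 0.1 on D1 and on D4, Psme4 gave p = 0.1 on D4, with KO higher, and Psmb8, Psmb9 and Psme1 gave p = 0.1 on D7. Averaged over days, with labels permuted within days, the exact p of the catalytic and activator genes ran from 0.0701 for Psmb6 to 0.785.

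Across the members, 0 of 44 were called on D1, where 0.00636% of all genes were called higher and 0% lower. On D4, D7 and D14, 0 members and 0% of all genes were called, and averaged over days 0 members, where 0.00636% of all genes were lower and 0% higher. At an unadjusted p under 0.05, 14 of 44 members were lower in KO on D4 and 0 higher, where 19.1% of all genes were lower and 3.65% higher. Without KO D4 replicate 2, 0 members were lower or higher at that level, where 2.69% of all genes were lower and 1.42% higher (limma). The 14 included all 4 noncatalytic beta genes, from -0.32 for Psmb4 to -0.39 for Psmb1, with an adjusted p of 0.212 each. The median of the members on D4 was -0.32 and that of all genes -0.28. Beside these, all 5 regenerating fibre and myoblast markers were lower in KO on D4 at an unadjusted p under 0.05 (median -1.83), with sums from 1118 to 1599 TPM in WT and from 46.3 to 902 TPM in KO. All 8 leukocyte and macrophage markers had negative values (median -1.16), with sums from 2565 to 5159 TPM in WT and from 414 to 3579 TPM in KO, and all 8 myofibre markers positive ones. Their part in the result was not tested. With array quality weights Psmb3 (-0.22, adjusted p = 0.0472, limma) and Psmd10 (-0.53, adjusted p = 0.016) were called lower in KO on D7. The share of all genes called in that fit is not given, so that these calls cannot be set against it. The median of all genes there was -0.081. The libraries did not overlap, with KO lower, for 8 of 44 members on D4 and for 11.2% of all genes, and for 7 of 44 on D7 and 14.6% of all genes. On D7 the leukocyte and macrophage sums did not overlap either, from 1279 to 1770 TPM in WT and from 445 to 1171 TPM in KO.

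On the other days 0 members had an unadjusted p under 0.05. Among all genes, 2.88% were higher and 2.5% lower on D1, 0.484% higher and 2.58% lower on D7, and 1.76% higher and 0.299% lower on D14 at that level. Averaged over days 1 member was lower, where 1.18% of all genes were higher and 2.35% lower. The F test of the genotype difference over the 4 days, which is the interaction of genotype and day, called 0 members and 0% of all genes by limma. At an unadjusted p under 0.05 it gave 0 members, where it gave 7.65% of all genes. On D4 the members ran from -0.80 for Psmb8 to 0.12 for Psme4. On D1 the members ran from -0.39 for Psmd8 to 0.49 for the uncertain copy Psme2b. The lowest values of the other classes on D1 were -0.25 for Psmb3, -0.19 for Psma6 and -0.16 for Psmc2, and the highest values on D14 were 0.33 for Psmd14, 0.23 for Psmb2, 0.18 for Psma1 and 0.16 for Psmc2. The lowest values on D7 were -0.53 for Psmd10 and Psmc6, -0.31 for Psma3 and -0.15 for Psmb3.

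**Figure D4:**
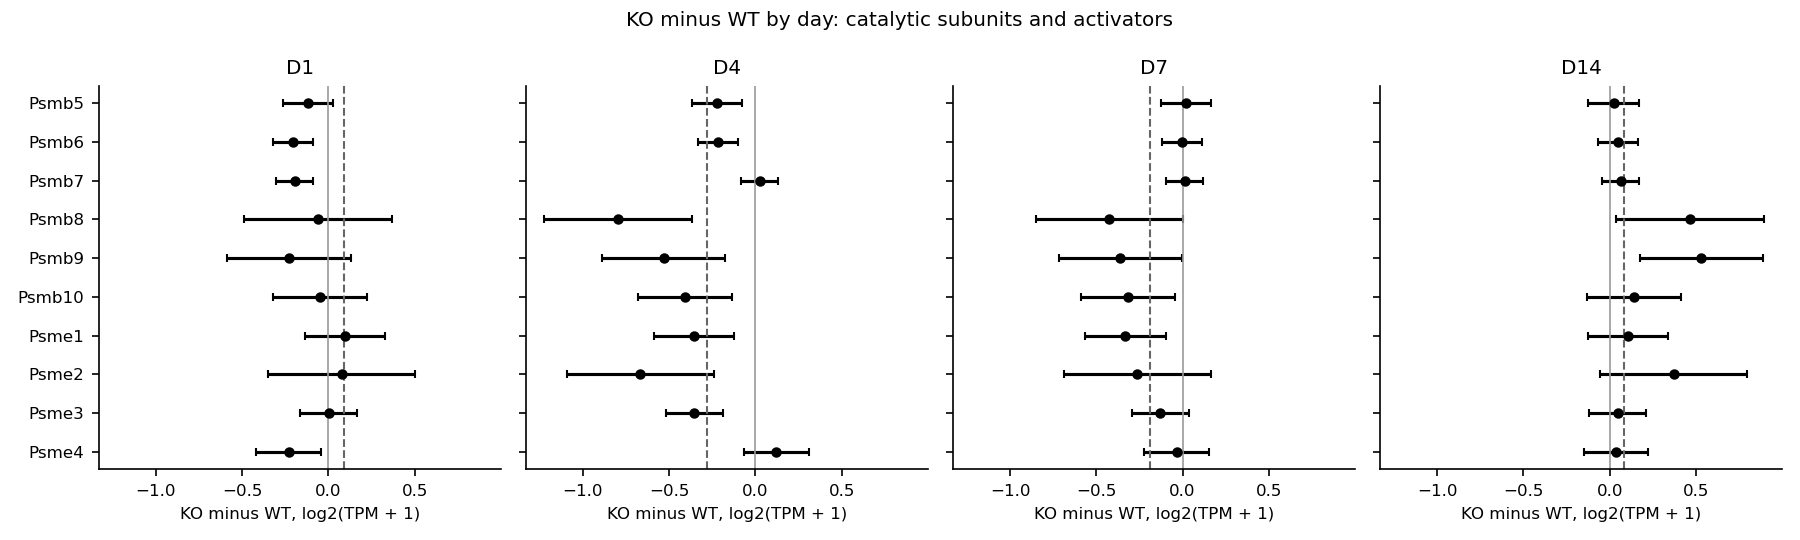
KO minus WT difference in log2(TPM + 1) (x axis) for the catalytic and activator genes on each day, as points with ± 1 SE bars from limma, the grey line at 0 and the dashed line at the median of all genes. On D4 the points of Psmb8 (-0.80) and Psme2 (-0.67) lie farthest to the left, and none of the values was called.

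The PA28 genes and Psme4 took different courses in both genotypes. Psme1 measured 85.9, 128 and 56.7 TPM in WT and 105, 85.2 and 85.6 TPM in KO on D1, and 57.5, 47.7 and 45.4 TPM in WT and 41.1, 61.5 and 61.6 TPM in KO on D14. Psme2 measured 272, 148 and 113 TPM in WT and 145, 58.5 and 132 TPM in KO on D4, and 39.9, 65.6 and 38.4 TPM in WT and 41.8, 73.0 and 72.6 TPM in KO on D14. The genotypes overlapped for both genes on the days given, and on D7 every KO library of Psme1 lay below every WT library (log2 difference -0.33, not called). Psme4 ran otherwise, with 22.8, 22.3 and 20.3 TPM in WT and 23.2, 23.4 and 24.7 TPM in KO on D4, and 34.7, 37.9 and 38.6 TPM in WT and 37.5, 45.8 and 31.9 TPM in KO on D14, so that in both genotypes every D4 library lay below every D14 library. On D4 every KO library of Psme4 lay above every WT library, by little, and the difference was not called.

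Across the 24 injured libraries the inducible catalytic genes moved together. The Pearson correlation of their log2(TPM + 1) was 0.96 for Psmb8 and Psmb9, 0.98 for Psmb8 and Psmb10, and 0.94 for Psmb9 and Psmb10, and the mean of the 3 correlated at 0.83 with the mean of the constitutive genes. These are descriptions over libraries that share days, genotypes and cell makeup. Of all genes tested, those most like the inducible mean were H2-D1 (0.98), which encodes an MHC class I chain, Tap1 (0.98), B2m (0.98), which encodes the shared light chain of MHC class I, Cdca4 (0.98) and H2-K1 (0.98), a further class I chain. It correlated at 0.91 with Mki67, a proliferation marker, 0.90 with Ptprc, the pan-leukocyte marker, 0.89 with Irf1 and -0.71 with the myofibre gene Ckm. The genes most like the constitutive mean were Trpc4ap, Ube2l3, Ywhag, Wbp2 and Ubb (0.96 to 0.97), of which Ube2l3 encodes a ubiquitin-conjugating enzyme and Ubb a ubiquitin precursor.

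**Figure D5:**
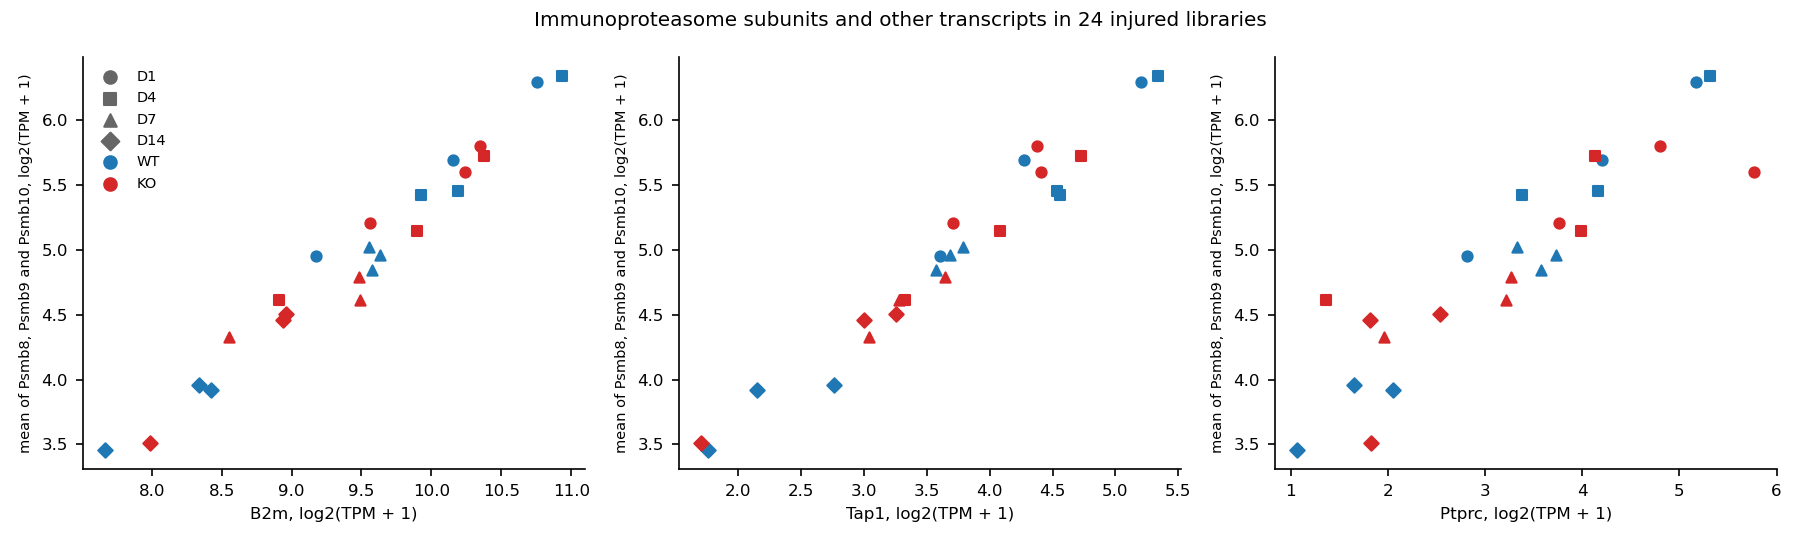
Mean log2(TPM + 1) of Psmb8, Psmb9 and Psmb10 (y axis) against log2(TPM + 1) of B2m, Tap1 and Ptprc (x axes), with 1 point per injured library (n = 24), coloured by genotype and shaped by day. The points follow a narrow band for B2m (r = 0.98) and Tap1 (r = 0.98) and a wider one for Ptprc (r = 0.90).

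Of the 38 members outside the catalytic genes, 31 correlated more closely with the constitutive mean and 7 with the inducible mean. The 7 were Psme1 (0.96 with the inducible against 0.70 with the constitutive mean), Psme2 (0.92 against 0.71), Psme2b, Psmc3ip and the base chaperones Psmd5, Psmd9 and Psmd10. Some margins were small, as for Psme3ip1 (0.915 with the inducible against 0.918 with the constitutive mean) and Psmd9 (0.874 against 0.862). Psme4, counted among the 31, followed neither mean (-0.21 against 0.10). The core and regulatory particle subunits were thus closer to Psmb5, Psmb6 and Psmb7 over these libraries, some of them by little, apart from the chaperones. The share of all genes tested that lay closer to the constitutive mean is not given, so that the 31 cannot be set against it.

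The other genes of the pathway were taken from lists of 28 proteasome assembly and regulation genes, 11 genes of peptide loading and MHC class I, and 14 genes of interferon signalling, of which 25, 11 and 13 were tested. Shfm1, Paaf1 and AI314180 had no entry by these names, and Ifng, which encodes interferon gamma, reached no more than 1.33 TPM and did not pass. On WT D1 against control all 11 MHC class I genes were called higher, from Erap1 (1.30) to Tap1 (2.19), as were 10 of 13 interferon genes and 16 of 25 assembly and regulation genes, beside the 55.4% of all genes. Tap1 measured 4.06, 3.10 and 3.43 TPM in control and 18.3, 35.9 and 11.3 TPM on D1, and B2m measured 284, 285 and 229 TPM in control and 1141, 1732 and 577 TPM on D1. The D1 libraries were in the order seen for the immunoproteasome genes, with replicate 2 highest and replicate 3 lowest. Cxcl10, a chemokine induced by interferon, was the highest of its list (2.98), and Usp14, a deubiquitinase bound to the regulatory particle, the highest of the assembly list (1.47). The lowest interferon gene was Ifngr2 (0.36), which was not called.

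In the step from D1 to D4 in WT, 5 of 25 assembly and regulation genes, 0 of 11 MHC class I genes and 0 of 13 interferon genes were called lower, where 5.27% of all genes were, and none higher, the lowest being Adrm1 (-0.81), a ubiquitin receptor of the regulatory particle. From D4 to D7 the counts were 4 of 25, 0 of 11 and 0 of 13, where 9.31% of all genes were called lower. From D7 to D14 they were 6 of 25, 10 of 11 and 8 of 13, all lower, where 30.9% of all genes were, with Psmg4 (-0.96), a core assembly chaperone, Pdia3 (-1.69), a chaperone of class I loading, and Cxcl10 (-2.52) the lowest of their lists. In KO from D1 to D4 the counts were 8 of 25, 3 of 11 and 2 of 13, all lower, where 12.2% of all genes were, and 0 in each list in the later steps. Nfe2l1, a transcription factor that drives proteasome genes when proteasome activity is short, was called in no step and had means of 227 TPM in control and 267 TPM on WT D1. Between genotypes 0 genes of the 3 lists were called.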

How the data were processed

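The authors deposited TPM per gene and library in 2 tables, 1 with the 24 injured libraries and 1 with WT D1 and control, in which the WT D1 libraries were quantified separately. Tests were therefore run within a table. Per the labels, RNA of snap-frozen muscle went through a SMARTER mRNA library kit and Illumina paired-end sequencing, and the submitters' processing notes name mm10. The aligner, the counting tool and the use of strand are not given in the sources used here. TPM holds no read number, so that depth is unknown and intervals or detection limits are not given. The study describes 2 batches, 1 with injured and contralateral muscle at 24 h and 1 with WT and KO at 4 times, and the labels give none. For WT D1, batch therefore cannot be told apart from genotype, from injury or, against the later WT days, from day.

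Genes with at least 1 TPM in at least 3 libraries (15718 and 13041) were analysed as log2(TPM + 1), so that differences of low genes are understated, with limma 3.58.1 (R 4.3.3, trend, group means, 1 fit per table) and Benjamini-Hochberg adjustment, and were tested on simulated data first. The written design assigned the D14 step to the control table by mistake, and it was fitted with the other injured groups. Single genes were also tested by exact permutation in Python 3.11.15. Named genes were the catalytic and activator genes, the highest and lowest member of each class in a comparison, and the highest and lowest of each pathway list, of which some values are not reported here. Members and lists were chosen with earlier results of these data known. Positions came from GENCODE mouse release 21. Libraries with the same replicate number deviated together in KO D4 against D1 (correlations of 0.19, 0.38 and 0.26) and in KO D7 against D4 (0.28, 0.44 and 0.13). They did not do so throughout in any other comparison. The labels do not say what a number marks, the main fits did not pair libraries, and a replicate block was an alternative only. Alternatives were another pseudocount, filter, scaling, weighting, sample set or block and each library left out.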

Additional observations from a re-analysis of the deposited data

How the results depend on the processing

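Depth is unknown, groups of 3 cannot reach an exact p under 0.1, and TPM are shares, so that scaling bears on every count. From D1 against control and the WT steps to D4, D7 and D14, median-of-ratios scaling gave 11, 32, 1 and 3 members called, quantile normalization 25, 30, 0 and 1, and removing the 50 most abundant genes 23, 31, 0 and 3, where the calls to D14 were higher except for 2 of the last 3. Median-of-ratios scaling turned the sign from control to D1 of Psme1 (-0.00944), Psma6 (-0.30), Psmb1 (-0.11), Psmc3 (-0.13) and Psmd6 (-0.23), and from D7 to D14 of Psmb6 (0.25), Psme3 (0.084), Psmb3 (0.18) and Psmc4 (0.20). Quantile normalization did so for Gsdme from control to D1 (-0.068) and Psmb6 from D7 to D14 (0.0015), and removing abundant genes for Psma6 (-0.031) and Psmb6 (0.029) in those steps. With no filter the WT D14 step had 6 calls, where more genes were tested. Array quality weights gave 38 (WT D7), 30 (WT D14), 13 (KO D4), 3 (KO D7) and 11 (KO D14) calls in the steps, 2 for KO against WT on D7, and an inducible minus constitutive difference between genotypes of 0.17 on D4 and -0.085 on D7. Fits of 2 groups, with fewer samples, gave 4, 3 and 27 calls in the WT steps and 0 for KO D4. With 1 library left out the calls ranged from 36 to 41 for D1 against control, 13 to 20 for WT D4, 1 to 14 for WT D7, 0 to 8 for WT D14, 11 to 28 for KO D4 and 0 to 9 for KO D7. Leaving out WT D1 replicate 3 and KO D4 replicate 2 together, an alternative chosen after seeing the data, gave 17 calls for WT D4, 17 for KO D4 and 11 for KO D7.

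With the replicate block the calls were 40, 20, 14 and 14 in the comparison with control and the WT steps and 26, 0 and 0 in the KO steps, and 0 between genotypes, so that no count moved by more than 1.5 times. The causes of these changes were not tested. The shares of all genes called under these alternatives are not given, so that the counts cannot be set against them. Of the 242 named values not called, 116 of 4173 alternatives gave a call and 318 the other sign. For the named values that were called, 376 alternatives with all libraries kept the call, 111 lost it and 13 gave the other sign. With a library left out, 246 kept the call, 119 lost it and 0 gave the other sign.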
